A study of Rattus norvegicus with 12 samples.

Results

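Growth hormone, made by the pituitary, acts on the liver through its receptor, Ghr, and the liver answers by making insulin-like growth factor 1, Igf1. In blood most Igf1 travels in a complex with the binding protein Igfbp3 and the acid-labile subunit, Igfals, which prolongs its life there. Igfbp1 is a liver-made binding protein whose transcription insulin represses and glucocorticoids raise, and Igfbp2 is a further liver-made binding protein that rises in fasting. Severe injury is known as a state of growth hormone resistance, with low circulating Igf1 despite growth hormone.

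These 6 genes, Igf1, Ghr, Igfals, Igfbp1, Igfbp2 and Igfbp3, were described here out of 10411 genes measured. They were chosen by name, taking each probe set that the array's annotation gives to a single gene, that gene being among the 6. They have 9 of the 15866 probe sets tested. Igf1, Ghr and Igfbp3 have 2 probe sets each, which were averaged, and Igfals, Igfbp1 and Igfbp2 have 1 each.

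The samples are RNA from rats given a thermal injury (a burn) and from rats given a sham procedure, studied after 1, 2, 4 and 7 days with 3 samples a day. Each of the 12 samples pairs injured RNA with sham RNA, and the deposited value is the log2 ratio of their signals on an Affymetrix RAE230A array. The labels give no strain, sex, age, burn size or tissue. They also leave unsaid whether a day's 3 samples are separate animals, so p-values measure only the spread between samples. Day 1 was left out because its identifiers do not name the same probe sets as on the other days: array signals rebuilt from the ratios had rank correlations of 0.00757 to 0.0295 between day 1 and another day, against 0.716 to 0.761 among the 9 arrays of days 2, 4 and 7.

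Each log2 ratio below is relative to its array's median. Values above 0 are taken to mean more RNA in injured rats. This is the likely direction, since the labels list sham first and injury second, but nothing states it. If the ratio ran the other way, every sign would turn. A ratio says nothing of the level of a gene, so a brightness rank is given where a level matters. It is the percentile, among all genes or probe sets, of the smaller rebuilt signal, with values that gave no signal pair ranked highest. Of 10 hepatocyte markers, which include albumin and apolipoproteins, 9 were in the brightest 25% of genes and 8 in the brightest 10%. None of the measured skeletal muscle, kidney or pituitary markers was in the brightest 25%. The probe sets of Igf1, Igfals and Igfbp1 were ranked in the top class, at percentile 96.8, because no pair of signals up to 20000 was found for them in 9, 7 and 6 of the 9 arrays; their level itself was not measured. In bulk RNA, fewer cells of a type and less RNA per cell cannot be told apart.

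The promoters are shown for Igfbp1, the gene with the largest ratios of the 6, and Igf1, because these are the members whose 250 bases before the gene's start hold CAAAACA, the core of the insulin response elements known from the Igfbp1 promoter and bound by FoxO factors. The sequences are from RefSeq, build GRCr8, in the direction of transcription, and the capitals mark the match. Igfbp1 lies at chr14:86261277-86266344 and the window at chr14:86261027-86261276, plus strand. Igf1 lies at chr7:24169608-24249446 and the window at chr7:24172282-24172531, plus strand, since the start used for it lies inside the gene's annotated span.
Igfbp1: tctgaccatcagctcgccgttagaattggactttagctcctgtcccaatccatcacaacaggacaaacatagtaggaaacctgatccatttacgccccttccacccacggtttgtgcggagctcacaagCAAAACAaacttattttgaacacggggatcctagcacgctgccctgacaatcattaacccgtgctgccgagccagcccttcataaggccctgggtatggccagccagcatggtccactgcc
Igf1: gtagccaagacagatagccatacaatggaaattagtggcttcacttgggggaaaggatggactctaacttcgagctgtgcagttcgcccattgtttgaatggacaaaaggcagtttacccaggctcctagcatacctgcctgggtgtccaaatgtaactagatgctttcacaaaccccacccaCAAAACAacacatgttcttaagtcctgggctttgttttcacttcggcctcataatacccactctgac
The match lies at -121 to -115 from the start in Igfbp1 and at -67 to -61 in Igf1, both on the plus strand. Searched on both strands, CAAAACA is in 5.46% of 33469 promoter windows of this length, and in 2 of the 6 members. The STAT5 consensus TTCNNNGAA, through which growth hormone acts, is in 7.67% of the windows and in 0 of the 6. A match is a description of letters and not a binding site. Igfbp1 and Igfbp3 are neighbours on chromosome 14, 3863 bases apart with 0 annotated genes between them.

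Of the 6 genes only Igfbp1 passed the test in any comparison with sham RNA. It was higher in injured rats at day 2 by 5.07-fold and had a ratio of 4.71-fold at day 4, while at day 7 all 3 samples were below sham. The day 2 log2 ratios were 1.07, 2.77 and 3.19 in samples 1 to 3. The day 4 ratios were 2.81, 2.47 and 1.43. The day 7 ratios were -0.84, -0.15 and -0.91. All 6 samples of days 2 and 4 were thus above 1 on the log2 scale and all 3 of day 7 below 0, with no overlap of day 7 with either earlier day. Every day 7 sample lay below day 2 for 7.15% of all genes, and below day 4 for 11.1%. For Igfbp1, the means were 2.34 ± 1.12, 2.24 ± 0.72 and -0.63 ± 0.42 (SD, n = 3 each). By log2 ratio Igfbp1 ranked 6 from the top of 10411 genes at day 2 and 14 from the top at day 4.

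**Figure D1:**
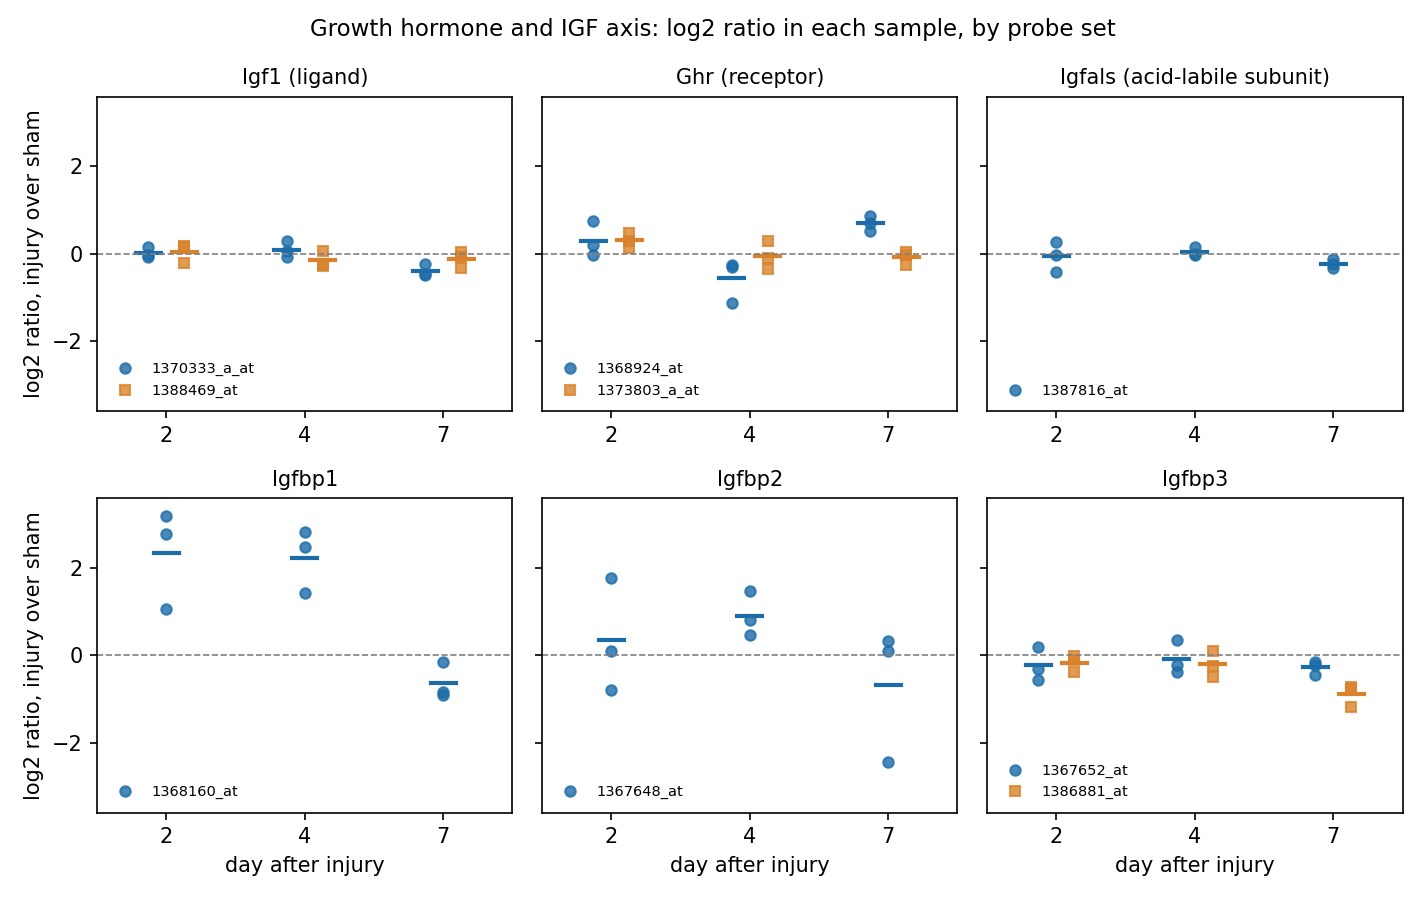
Log2 ratio of injury over sham (y axis, relative to the array median) at days 2, 4 and 7 (x axis) for each probe set of the 6 genes; each point is 1 sample and each bar the mean of 3 samples. Igfbp1 samples lie between 1.07 and 3.19 at days 2 and 4 and between -0.91 and -0.15 at day 7, while every sample of Igf1 and Igfals lies between -0.48 and 0.30.

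At day 2 Igfbp1 rose with a limma adjusted p of 0.0306 and a 95% interval of 1.58 to 3.11 on the log2 scale. This fit lets the variance follow brightness, and it called 15 of 10411 genes at day 2, 0.144%, with 12 higher (0.115%) and 3 lower. Without that trend the adjusted p of Igfbp1 was 0.222 and limma called 0 genes (0%), with 809 genes at an unadjusted p under 0.05. The call also depended on single samples: limma's adjusted p was 0.320 without day 2 sample 2, 0.119 without day 2 sample 3 and 0.0576 without day 7 sample 1, with log2 ratios of 1.92 to 2.98 over all leave-one-out fits.

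At day 4 the interval of Igfbp1 was 1.47 to 3.00 and its limma adjusted p 0.0751. No gene was called at day 4 (0%), with 1109 of 10411 at an unadjusted p under 0.05, and Igfbp1 had the fifth smallest p of all genes. Of 18 alternatives, 2 passed. Limma's adjusted p was 0.0281 with samples weighted by their closeness to the day means and 0.0236 without day 2 sample 1. It was 0.387 without the variance trend, 0.318 without day 4 sample 1 and 0.526 without day 4 sample 2. Markers of exocrine pancreas stood apart in the same arrays. The median ratio of the 9 measured markers was -0.05, 3.58 and 1.75 in day 4 samples 1 to 3, and between -0.21 and 0.24 at the other days. Igfbp1 had 2.81, 2.47 and 1.43 in the same samples. The part of the pancreatic RNA in the day 4 values was not tested.

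At day 7 Igfbp1 had a log2 interval of -1.40 to 0.13 and a limma adjusted p of 0.505, and 5 genes were called in all, 0.048%. Averaged over days 2, 4 and 7 it rose by 1.32 (SE 0.20) on the log2 scale, 2.49-fold, with a limma adjusted p of 0.0219, among 34 genes called (0.327%). That adjusted p was 0.154 without the variance trend, where limma called 4 genes (0.0384%). It was also past 0.05, at 0.0627 to 0.0921, without day 2 sample 2, day 4 samples 1 or 2, or any of the 3 samples of day 7, each left out in turn. The mean covers days whose means differ in sign, so it describes none of them.

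The difference between the days was tested directly. Igfbp1 at day 7 minus day 2 was -2.98 (SE 0.49, interval -4.06 to -1.89), the third smallest p of 10411 genes, with a limma adjusted p of 0.163. Day 7 minus day 4 was -2.87 (SE 0.49, interval -3.95 to -1.79), with an adjusted p of 0.0644. Day 4 minus day 2 was -0.11 (SE 0.49, interval -1.19 to 0.98), an interval that leaves the order of these days undetermined. For the first of these differences limma called 0 genes (0%) with 867 at an unadjusted p under 0.05, for the second 3 genes (0.0288%) and for the last 0 genes (0%) with 901 at an unadjusted p under 0.05. The limma F test over the 3 days gave an adjusted p of 0.0964, with 1 gene called (0.00961%). Being above 0 in all 6 samples of days 2 and 4 and below 0 in all 3 of day 7 was seen for 60 genes, 0.576% of those tested.

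**Figure D2:**
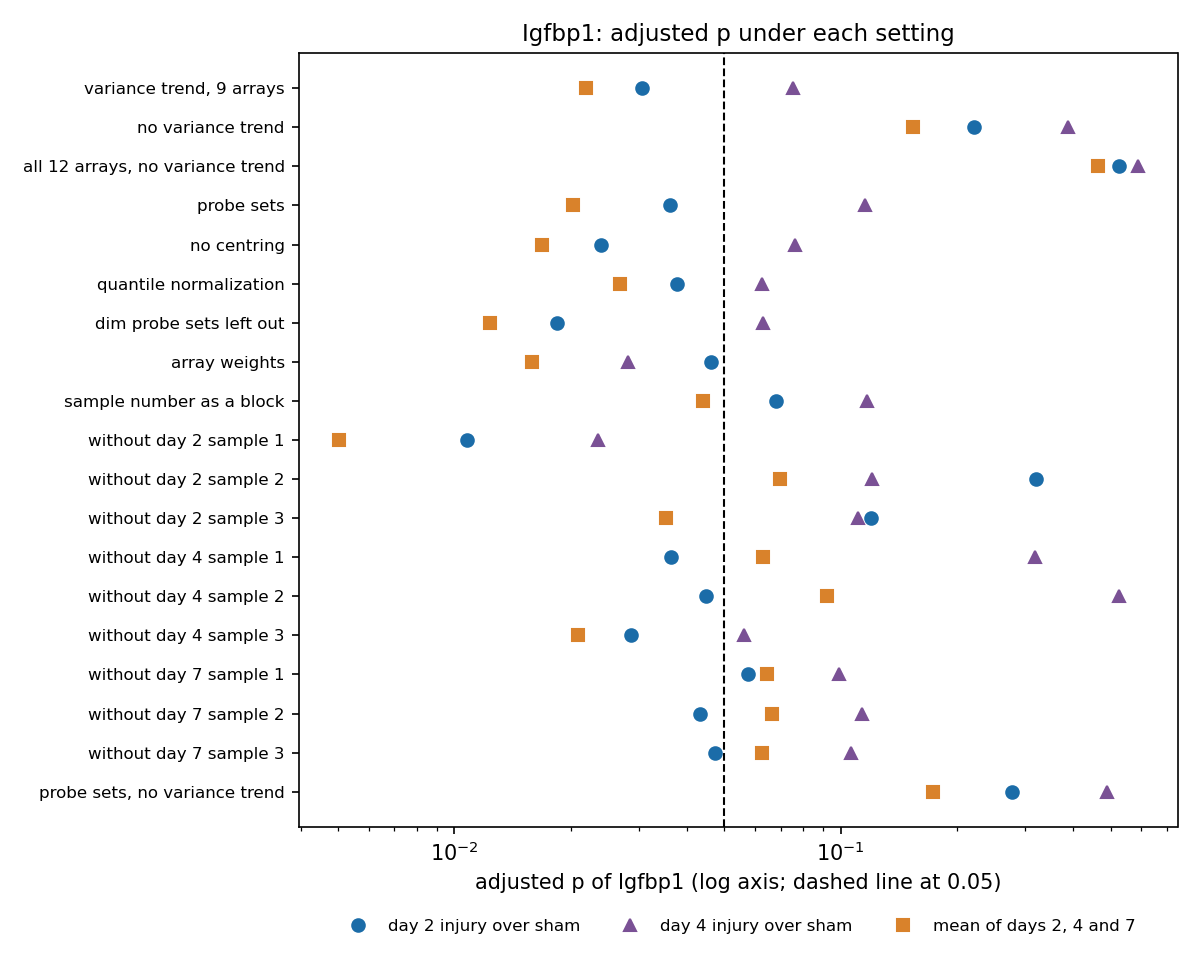
Limma adjusted p of Igfbp1 (x axis, log scale, dashed line at 0.05) under the fit described and each of 18 alternatives (rows), for day 2, day 4 and the mean of days 2, 4 and 7. Day 2 is left of the line in 11 alternatives, the mean in 9 and day 4 in 2; the fits without a variance trend lie to the right for all 3.

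Igf1, the growth factor itself, stayed close to sham at days 2 and 4 and was lower in all 3 samples at day 7, without passing the test. Its log2 ratios were 0.06, -0.14 and 0.17 at day 2, then -0.17, -0.09 and 0.18 at day 4, and -0.40, -0.15 and -0.22 at day 7. The day 2 and day 4 values straddle 0 and overlap each other, and the day 7 samples are all below 0. The means were 0.03 ± 0.16, -0.03 ± 0.18 and -0.26 ± 0.13 (SD, n = 3), with limma intervals of -0.21 to 0.28, -0.27 to 0.22 and -0.50 to -0.01. Adjusted p at day 7 was 0.380 by limma, for a ratio of 0.837. Across the 9 arrays the SD of Igf1 was at percentile 7.13 of all genes.

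The 2 Igf1 probe sets differed at day 7. 1370333_a_at had -0.48, -0.23 and -0.47 in samples 1 to 3, a mean of -0.39 ± 0.14 (SD, n = 3; limma adjusted p 0.195 over probe sets). 1388469_at had -0.32, -0.07 and 0.03, a mean of -0.12 ± 0.18 (SD, n = 3; limma adjusted p 0.749). For both, no whole-number signal pair was recovered in any of the 9 arrays.

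Igfals (chr10:14397076-14408439, GRCr8), which holds Igf1 and Igfbp3 in the large complex in blood, had a similar course and did not pass the test. Its ratios were -0.42, -0.03 and 0.26 at day 2, -0.02, -0.02 and 0.15 at day 4, and -0.33, -0.24 and -0.12 at day 7. The 3 samples of day 2 spread on both sides of 0, and those of day 7 lie below all 3 of day 4, as they do for 11.1% of all genes. The mean at day 7 was -0.23 ± 0.10 (SD, n = 3), with an interval of -0.51 to 0.05 and a limma adjusted p of 0.503.

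Igfbp3 (chr14:86270208-86277944, GRCr8), the main carrier of circulating Igf1, was below sham in all 3 samples of day 7, as were 18% of all genes. It did not pass the test. The ratios of Igfbp3 were -0.48, 0.04 and -0.16 at day 2, 0.06, -0.36 and -0.14 at day 4, and -0.68, -0.50 and -0.59 at day 7. The 3 samples of day 7 lie below every sample of days 2 and 4. The day 7 mean was -0.59 ± 0.09 (SD, n = 3), a ratio of 0.666 with an interval of -0.88 to -0.29, and a limma adjusted p of 0.144, which does not pass. The mean over the 3 days was -0.31 (SE 0.08), with an adjusted p of 0.161. Day 7 minus day 2 was -0.39 (SE 0.19) and day 7 minus day 4 was -0.44 (SE 0.19), with limma adjusted p of 0.623 and 0.341. A day 7 in which every sample lay below day 2 was seen for 7.15% of all genes, and below day 4 for 11.1%.

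The probe sets of Igfbp3 also differed in size at day 7. 1386881_at had -1.19, -0.77 and -0.73, a mean of -0.90 ± 0.25 (SD, n = 3), with a limma adjusted p of 0.0616 over probe sets. 1367652_at had -0.16, -0.23 and -0.44, a mean of -0.28 ± 0.15 (SD, n = 3), with a limma adjusted p of 0.562. All 6 values were below 0, and those of the first probe set were all lower than those of the second.

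At day 7, 4 of the 6 genes (Igf1, Igfals, Igfbp1 and Igfbp3) were below 0 in all 3 samples, against 18% of all genes. Without centring 3 of 6 were, since Igfals was not, against 12.2% of all genes. With quantile normalization the same 4 were, against 17.7%. At day 2, 0 of the 6 were below 0 in all 3 samples, against 13.1% of all genes, though Igfbp3 was without centring. At day 4 only Ghr was, against 16.2%, and with quantile normalization it was not. Above 0 in all 3 samples were Ghr and Igfbp1 at day 2 (13.8% of all genes), Igfbp1 and Igfbp2 at day 4 (18.3%) and Ghr at day 7 (15.6%). Measures that follow RNA quality were below 0 in all 3 day 7 samples, as the one of actin was at day 2. They compare injured with sham RNA: the log2 ratio of a gene's 3' probe set minus that of its 5' probe set. For actin this difference was -0.88, -0.44 and -0.88 at day 7, -0.35, 0.38 and 0.23 at day 4, and -0.79, -0.31 and -0.06 at day 2. For GAPDH it was -0.39, -0.21 and -0.80 at day 7, 0.14, 0.31 and -0.08 at day 4, and -0.42, -0.19 and 0.11 at day 2. The median ratio of 4 endothelial markers was -0.56 to -0.32 at day 7. That of 10 hepatocyte markers was -0.18 to -0.08, with 1 of the 10 above 0 by its day mean. It was -0.29 to -0.06 for 8 stellate and matrix markers and -0.33 to 0.10 for 6 Kupffer and macrophage markers. The part of these in the day 7 values was not tested.

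Ghr, the growth hormone receptor (chr2:54269066-54532595, GRCr8), lay above sham at days 2 and 7 and below it at day 4, and passed no test. Its log2 ratios were 0.45, 0.22 and 0.24 at day 2, -0.30, -0.61 and -0.01 at day 4, and 0.25, 0.37 and 0.31 at day 7. No day 4 sample overlapped those of the other days. Every day 4 sample lay below day 2 for 7.03% of all genes, and every day 7 sample lay above day 4 for 8.58%. The means were 0.30 ± 0.12, -0.31 ± 0.30 and 0.31 ± 0.06 (SD, n = 3 each), and limma's adjusted p was 0.521, 0.390 and 0.331. Day 4 minus day 2 was -0.61 (SE 0.17) with an adjusted p of 0.334, and day 7 minus day 4 was 0.62 (SE 0.17) with an adjusted p of 0.155. Above 0 in all samples of days 2 and 7 and below 0 in all of day 4 were 80 genes, 0.768% of those tested.

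The 2 Ghr probe sets differed in their course. 1368924_at had 0.75, -0.04 and 0.20 at day 2, then -0.25, -1.13 and -0.30 at day 4, and 0.51, 0.70 and 0.87 at day 7. 1373803_a_at had 0.14, 0.48 and 0.29 at day 2, then -0.35, -0.10 and 0.28 at day 4, and -0.02, 0.04 and -0.25 at day 7. Neither probe set alone was above 0 in every sample of days 2 and 7 and below 0 in every sample of day 4, which holds for their average. The first separated day 7 from day 4 and the second did not, and at day 7 the means were 0.69 ± 0.18 and -0.08 ± 0.15 (SD, n = 3) and the 2 do not agree in sign. In 4 of the 9 arrays the second had no recovered signal pair.

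Igfbp2 (chr9:81864811-81892179, GRCr8) had the widest spread of the 6 at days 2 and 7. Its ratios were 0.10, 1.77 and -0.80 at day 2, then 0.46, 1.47 and 0.80 at day 4, and 0.32, 0.10 and -2.44 at day 7. All 3 day 4 samples lay above 0, and the day 7 mean of -0.67 ± 1.54 (SD, n = 3) rests on sample 3, without which it was 0.21. At day 4 the mean was 0.91 ± 0.52 (SD, n = 3), with an interval of -0.25 to 2.07 and a limma adjusted p of 0.597. Its probe set was at percentile 47.3 of brightness, the dimmest of the 9. Its SD over the 9 arrays was at percentile 92.4 of all genes, and that of Igfbp1 at percentile 97.3.

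Other ligands, receptors and binding proteins of the axis showed no called gene. Of all genes, 0.144%, 0% and 0.048% were called at days 2, 4 and 7, and 0.327% in the mean. Of the list's 17 measured genes, 11 were above 0 at day 2, 11 at day 4 and 9 at day 7. Their medians were 0.02, 0.08 and 0.02, against 0.00, 0.01 and -0.01 for all genes. The highest by the mean of the 3 days were the prolactin receptor Prlr at 0.33 and the hypothalamic releasing hormone Ghrh at 0.27, the lowest Igfbp6 at -0.15 and Igsf1 at -0.14, with limma adjusted p of 0.740, 0.869, 0.834 and 0.747. Ghrh was at percentile 4.88 of brightness, so its ratios, from -2.36 to 2.03, come from dim signals.

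**Figure D3:**
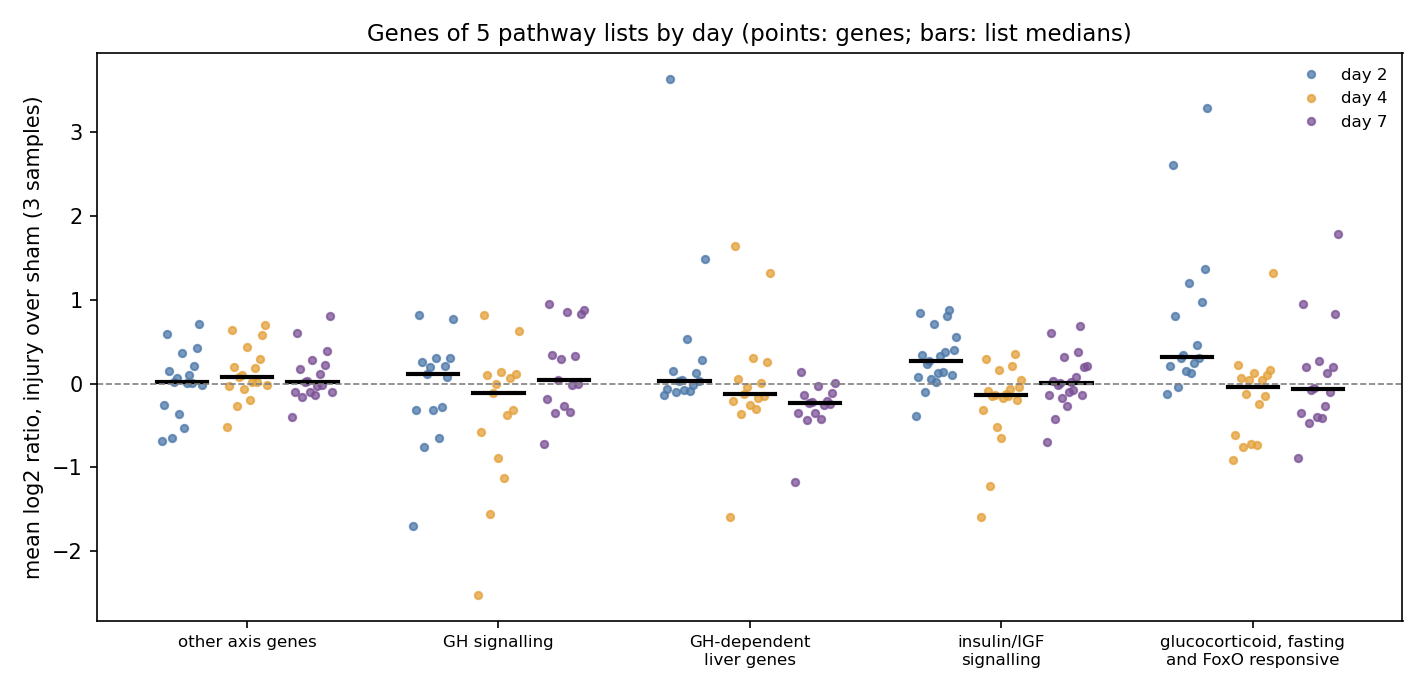
Mean log2 ratio of injury over sham (y axis, 3 samples a day) for each gene of 5 lists (x axis), coloured by day; each point is a gene and each bar the list's median. Insulin and IGF receptor signalling genes have a median of 0.27 at day 2 and -0.13 at day 4. Growth hormone dependent liver genes have a median of -0.23 at day 7, and that list was not split by whether the hormone raises or lowers a gene.

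Of the 15 measured genes of growth hormone signalling, from Jak2 and Stat5b to the feedback inhibitors, 9, 6 and 8 were above 0 at days 2, 4 and 7, with medians of 0.11, -0.11 and 0.05. Onecut1, a liver transcription factor that growth hormone induces, was the only one called, in the mean of days, where 0.327% of all genes were. It fell by 1.32 (SE 0.19) over the mean of the 3 days, a ratio of 0.400, with a limma adjusted p of 0.0180. It had -1.69, -1.78 and -1.60 at day 2, then -0.75, -1.96 and -1.95 at day 4, and -1.43, -1.26 and 0.54 at day 7. It was below 0 in 8 of 9 samples, the exception being day 7 sample 3. The limma adjusted p was 0.133 without the variance trend, 0.205 for the brighter of its 2 probe sets alone, whose mean was -0.62, and 0.0573 to 0.0723 without day 2 samples 1 or 2, day 4 sample 2 or day 7 samples 1 or 2, each in turn. Socs3, a feedback inhibitor that inflammatory cytokines induce too, had a mean of 0.59 (limma adjusted p 0.0734), Stat3 one of 0.59 (0.125) and Cish, a feedback inhibitor that Stat5 induces, one of -1.20 (0.270).

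Liver genes that depend on growth hormone in the rat showed 9, 6 and 2 of 15 above 0 at days 2, 4 and 7, with medians of 0.03, -0.12 and -0.23. At day 7, 13 of 15 were thus below 0, against all genes with 48.4% above 0. None of the 15 passed the test at that day, when 0.048% of all genes did. The list was not split by whether growth hormone raises or lowers a gene. Its counts and medians thus show no direction of growth hormone action. Hepatocyte markers moved with the days as well: 9 of 10 were above 0 at day 2, 1 at day 4 and 1 at day 7, and their median ran from -0.02 to 0.25, from -0.31 to 0.04 and from -0.18 to -0.08 over the samples of each day. Their part in the values of the liver lists was not tested. Cyp2c12, a cytochrome of female rat liver that continuous growth hormone maintains, rose at day 2. It had 1.72, 5.70 and 3.47 at day 2, then 0.35, -0.48 and 0.91 at day 4, and -0.56, -0.16 and 1.14 at day 7. Each day 2 sample lay above every sample of days 4 and 7. Of all genes, 7.03% had every day 4 sample below day 2, and 7.15% had every day 7 sample below day 2. The day 2 mean was 3.63 ± 1.99 (SD, n = 3), with a limma adjusted p of 0.0306. Without the variance trend it was 0.226, without day 2 sample 2 it was 0.204 and without day 2 sample 3 it was 0.108. Leaving out day 4 samples 1 or 3 or day 7 samples 1 or 2 gave 0.0555 to 0.0623. The labels do not give the rats' sex. Akr1b7 at 0.72, Hao2 at -0.26 and Obp3, the major urinary protein of the rat, at -0.97 by the mean of the 3 days had limma adjusted p of 0.778, 0.502 and 0.430.

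**Figure D4:**
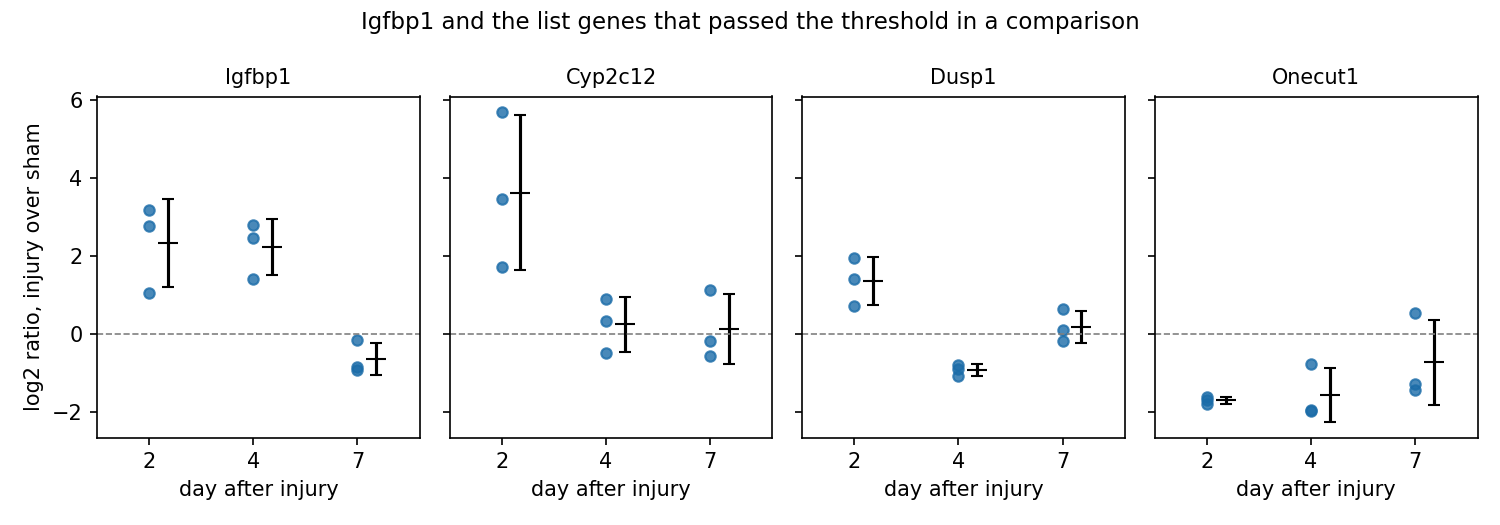
Log2 ratio of injury over sham (y axis) at days 2, 4 and 7 (x axis) for Igfbp1 and the list genes that passed the test in a comparison; points are samples, and the cross and bar are the mean and SD of 3 samples. Igfbp1 is above 0 at days 2 and 4, Cyp2c12 is at 1.72 or above at day 2 and at 1.14 or below at the later days, Dusp1 is above 0 at day 2 and below it at day 4, and Onecut1 is below 0 in 8 of 9 samples.

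Genes of insulin and IGF receptor signalling were above 0 for 17 of 19 at day 2, 5 of 19 at day 4 and 10 of 19 at day 7, with medians of 0.27, -0.13 and 0.00. At day 2, 50.8% of all genes were above 0 and at day 4, 51.0%. None of the 19 was called at any day or in the mean of days. Of all genes, 0.144%, 0% and 0.048% were called at days 2, 4 and 7, and 0.327% in the mean. The receptor substrate Irs1, at 0.37 by the mean of the 3 days, and the kinase Gsk3b, at 0.33, were highest. The regulatory subunit of phosphoinositide 3-kinase, Pik3r1, at -0.47, and the kinase Pdpk1, at -0.38, were lowest. Limma's adjusted p for these 4 lay between 0.408 and 0.734.

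Genes that answer to glucocorticoids, fasting or FoxO factors in the liver, the inputs known for Igfbp1, were above 0 for 14 of 16 at day 2, 8 of 16 at day 4 and 7 of 16 at day 7. Their medians were 0.32, -0.04 and -0.06. Of all genes, 50.8%, 51.0% and 48.4% were above 0 at these days. The list shares Tat with the hepatocyte markers and Irs2 with the insulin and IGF receptor signalling list. The latter shares Insr and Igf1r with the list of other axis genes. The phosphatase Dusp1, which glucocorticoids and stress induce, was the only one of the 16 called, at day 2, as were 0.144% of all genes. It had 0.73, 1.41 and 1.96 at day 2, then -0.79, -0.88 and -1.07 at day 4, and -0.18, 0.11 and 0.64 at day 7. It rose at day 2, at 1.37 ± 0.62 (SD, n = 3), with a limma adjusted p of 0.0392, and its day 4 mean was -0.92 ± 0.15 (SD, n = 3), with an adjusted p of 0.173. The day 2 call of Dusp1 was lost without the variance trend (adjusted p 0.222) and in the probe set fit (0.0789), without centring (0.0545), and without any day 2 sample but sample 1, any day 4 sample, or day 7 samples 1 or 2, at 0.0576 to 0.321. The transcriptional coactivator Ppargc1a had a mean over the 3 days of 1.44 and Gadd45b one of 1.01, with limma adjusted p of 0.308 and 0.328. Ppargc1a was at percentile 0.0961 of brightness. Trib1 at -0.08 and Tsc22d3 at -0.10 were lowest.

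The genes whose 9 ratios were most like those of each member were sought among 2573 brighter genes with an SD of at least 0.3 on the log2 scale. Pearson's correlation across arrays that share days and centring is a description here, and it takes no account of size. For Igfbp1 these were Gtf2h4 at 0.93, Sparc at 0.93 and Gucd1 at 0.91. Sparc had day means of 0.12, 0.36 and -0.54 at days 2, 4 and 7, a course of smaller size than that of Igfbp1. For Igfbp3 they were Gucd1 at 0.92, Drg2 at 0.90 and Il18bp at 0.89. Gucd1 was thus named for both Igfbp1 and Igfbp3, which share their lowest values at day 7. For Igf1 they were Slc6a6 at 0.90, Zfp36l1 at 0.88 and Amdhd2 at 0.86, and for Igfals RT1-CE12, Oplah and Ipo8, each at 0.93. For Ghr they were Ltc4s at 0.93, Slc20a2 at 0.92 and Rsrp1 at 0.91, and for Igfbp2 Dynlrb1 at 0.96, Alkbh7 at 0.95 and Gfus at 0.94.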

How the data were processed

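The authors deposited log2 values, 1 per probe set and sample, with injury and sham as a pair of channels per the labels. The deposited log2 values were read as ratios of whole-number signals: continued fractions (tolerance 6e-10, numbers up to 20000) recovered 94.0% to 94.6% of each array's values, and 6.81% to 8.16% after a random shift. No source used here gives the scaling, the software or the genome of the probe design. The median of the smaller recovered signal served as brightness, with a value that gave no pair counted as 20000.

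Of 15923 probe sets, 57 controls were left out. The platform annotation gave 1 symbol to 12783 of the other 15866, several to 312 and none to 2771, and 12748 had a gene ID in the GRCr8 table, which changed 0 symbols. Array medians lay between -0.13 and 0.16 and were subtracted, and probe sets of a gene were averaged, giving 10411 genes.

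limma 3.58.1 in R 4.3.3 fitted a mean per day over the 9 arrays of days 2, 4 and 7, with a variance trend on brightness and Benjamini-Hochberg adjustment over all genes at 0.05, and was tested on simulated data. The number of arrays limits the precision. The members, lists, fit and naming rule were chosen with earlier results of these data known. Named are the 6 members, list genes past the threshold, the 2 highest and 2 lowest of each list by the mean of the 3 days, and the 3 genes most like each member. Alternatives were no trend, all 12 arrays, probe sets in place of genes, no centring, quantile normalization, dim probe sets left out, array weights, sample number as a block and each sample left out. The fit of all 12 arrays takes part of each gene's spread from day 1, whose identifiers do not match those of the other days. Probe sets without the trend were added after the data had been seen. Pearson correlations of whole arrays were 0.00271 to 0.148 within a day and -0.105 to 0.115 between days.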

Additional observations from a re-analysis of the deposited data

Results flagged for a closer look

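Igfbp1 was above sham in every sample of days 2 and 4 and below it in every sample of day 7. Its day means thus differ in sign. That pattern of sides was seen for 60 genes, 0.576% of those tested. The day 7 interval of Igfbp1, -1.40 to 0.13, includes 0 (limma adjusted p 0.505). Being below 0 in all 3 samples of day 7 was seen for 18% of all genes. Day 7 minus day 2 was -2.98 (limma adjusted p 0.163) and day 7 minus day 4 was -2.87 (limma adjusted p 0.0644), so neither difference passed the test after adjustment over all genes. Actin's 3' log2 ratio minus its 5' log2 ratio was -0.79, -0.31 and -0.06 at day 2, -0.35, 0.38 and 0.23 at day 4 and -0.88, -0.44 and -0.88 at day 7. The part of this difference was not tested.

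Ghr was above sham in every sample of days 2 and 7 and below it in every sample of day 4. That holds for the average of its 2 probe sets and for neither alone. It was seen for 80 genes, 0.768% of those tested. With quantile normalization Ghr was not below 0 in all samples of day 4. Day 4 minus day 2 was -0.61 (limma adjusted p 0.334) and day 7 minus day 4 was 0.62 (limma adjusted p 0.155), and neither passed. Its 2 probe sets had day 7 means of 0.69 and -0.08.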

How the results depend on the processing

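Of 432 signed log2 ratios of the 6 genes under the alternatives, 401 kept their direction and their side of the threshold, 16 lost and 2 gained a call, and 13 changed sign. Many alternatives change only the spread and cannot move a day's mean, so much of the agreement in direction was fixed in advance. Of 108 F test results, 107 kept their side of the threshold and 1, Igfbp1 without day 2 sample 1, gained a call. The cause of these changes was not tested. Changes of sign were near 0, rested on 1 sample or came with the choice of 1 probe set. Igf1 was -0.0032 at day 2 without centring. In both probe set fits a gene is represented by its brighter probe set. There Ghr was -0.076 at day 7, while its other probe set had a mean of 0.69. Igf1 was 0.092 at day 4 in these fits. Its other probe set, equal in brightness, had -0.15. Leaving out 1 sample gave Igf1 -0.039 to 0.12 at day 2 and -0.13 to 0.044 at day 4, Igfals -0.22 to 0.12 at day 2 and -0.017 to 0.067 at day 4, and Igfbp2 -0.35 to 0.94 at day 2, -1.17 to 0.21 at day 7 and -0.036 to 0.49 for the mean. Igfbp1 kept its sign in all 18 alternatives at each day, with adjusted p from 0.0108 to 0.525 at day 2, from 0.0236 to 0.587 at day 4 and from 0.0050 to 0.463 for the mean. Over the alternatives the limma adjusted p was 0.0176 to 0.278 for Cyp2c12 and 0.0275 to 0.377 for Dusp1 at day 2, and 0.0026 to 0.429 for Onecut1.

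Counts of called genes moved with the fit. Without the variance trend limma called 0 genes at days 2 and 7, 4 for the mean of days and 0 in the F test. With all 12 arrays and no trend these were 0, 1, 8 and 0, with 1 at day 4. Probe sets gave 1 at day 4, 9 at day 7 and 0 in the F test, and without the trend 0 at day 2, 1 at day 7, 2 for the mean and 0 in the F test. Without centring they were 9 at day 7 and 0 in the F test, and with quantile normalization 2 in the F test. Without dim probe sets they were 1 at day 4, 8 at day 7 and 0 in the F test, and array weights gave 36 at day 4 and 2 in the F test. Leaving out 1 sample gave 0 to 17 genes at day 2, 0 to 6 at day 4, 0 to 12 at day 7, 9 to 40 for the mean and 0 to 6 in the F test. The lowest counts came without day 2 sample 2 at day 2, without day 7 sample 3 at day 7 and without day 4 sample 2 for the mean.

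Samples share a number across days, but the correlations of same-numbered samples' deviations from their day means were -0.03 to 0.05, so the numbers were not taken as pairs. With sample number as a block limma called 4 genes at day 2, 0 at day 4, 1 at day 7, 23 for the mean and 0 in the F test, and the adjusted p of Igfbp1 was 0.0679 at day 2 and 0.0440 for the mean. For Cyp2c12 and Dusp1 at day 2 it was 0.0623, and for Onecut1, by the mean of days, 0.0405.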
